A study of Mus musculus with 12 samples.

Results

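The genes described here are factors of the complement and coagulation systems, 43 genes taken by symbol through the GRCm38 annotation. Of these, 42 had a row in the deposited tables, none was at 0 in all 12 libraries, and all 42 passed the filter on low values, among 12637 genes tested. Klkb1, which encodes plasma prekallikrein, was not analysed here. By textbook knowledge of where each factor is made, 38 were grouped as hepatocyte-made and 4 as macrophage-made, namely the 3 chains of C1q (C1qa, C1qb and C1qc) and the properdin gene Cfp.

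The RNA came from flash-frozen whole livers of female C57BL/6 mice, with 3 libraries in each of 4 groups. HFHS_Curcumin and HFHS_Calcitriol mice ate a diet high in fat and sugar for 14 weeks, and in weeks 12 and 13 received intravenous liposomes holding curcumin, a plant polyphenol, or calcitriol, the active hormone of vitamin D. HFHS mice ate this diet without treatment. The libraries titled CNT carry the same diet text in the labels, so the sources used here leave unstated how CNT differs from HFHS. Mice given empty liposomes were not analysed here, and the agents cannot be told apart from injection and carrier. Whether the 3 libraries of a group came from different animals is not given by their titles, and each p-value rests on the spread of these libraries, which may be technical. Values are log2 expression levels as deposited, a change is a difference of 2 group means on that scale, and the depth behind them is unknown. In whole tissue, fewer cells of a type and less RNA per cell cannot be told apart.

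Complement is a set of plasma proteins that mark and perforate targets. C1q or mannose-binding lectins start proteolysis by C1r, C1s and the MASP proteases, C4 and C2 form the enzyme that cleaves C3, and C5 to C9 build the membrane attack complex. Coagulation is a second protease cascade that ends when thrombin turns fibrinogen into fibrin, held back by antithrombin and protein C, and plasmin dissolves the clot. The liver secretes most of both systems into blood. Tissue macrophages, Kupffer cells of the liver among them, make C1q, and leukocytes make properdin. Fibrinogen, C3 and several others belong to the acute phase proteins, whose hepatic transcription increases under interleukin-6 and STAT3 signalling.

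Some libraries stood apart in ways that touch these genes. HFHS replicates 1 and 3 lay at -32.8 and -28.4 on the first principal component of all genes, while HFHS replicate 2 lay at 3.09, among the other groups. HFHS_Calcitriol replicate 3 and CNT replicate 3 had the highest summed levels of 10 acute phase genes, 19.6 and 18.5, against 17.3 to 18.1 in the other 10 libraries. Saa2, a serum amyloid gene, stood at 11.58, 10.13 and 9.99 in HFHS_Curcumin, 11.35, 11.64 and 17.12 in HFHS_Calcitriol, 10.48, 10.47 and 10.20 in HFHS and 9.01, 9.21 and 13.12 in CNT. In HFHS replicate 3 Cfd, the adipocyte-made factor D, was at 9.18, against at most 4.32 elsewhere. All 14 hepatocyte markers were tested, led by Alb at 19.65 to 20.72.

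Among the 42 genes, HFHS replicate 1 was the lowest of the 12 libraries for 24 and HFHS replicate 3 for 10. CNT replicate 3 was the highest for 16 and HFHS_Calcitriol replicate 3 for 14. The median deviation of the 38 hepatocyte-made genes from their own means was 0.22 in HFHS_Calcitriol replicate 3, 0.30 in CNT replicate 3, and -0.34, -0.11 and -0.29 in the HFHS libraries.

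**Figure D1:**
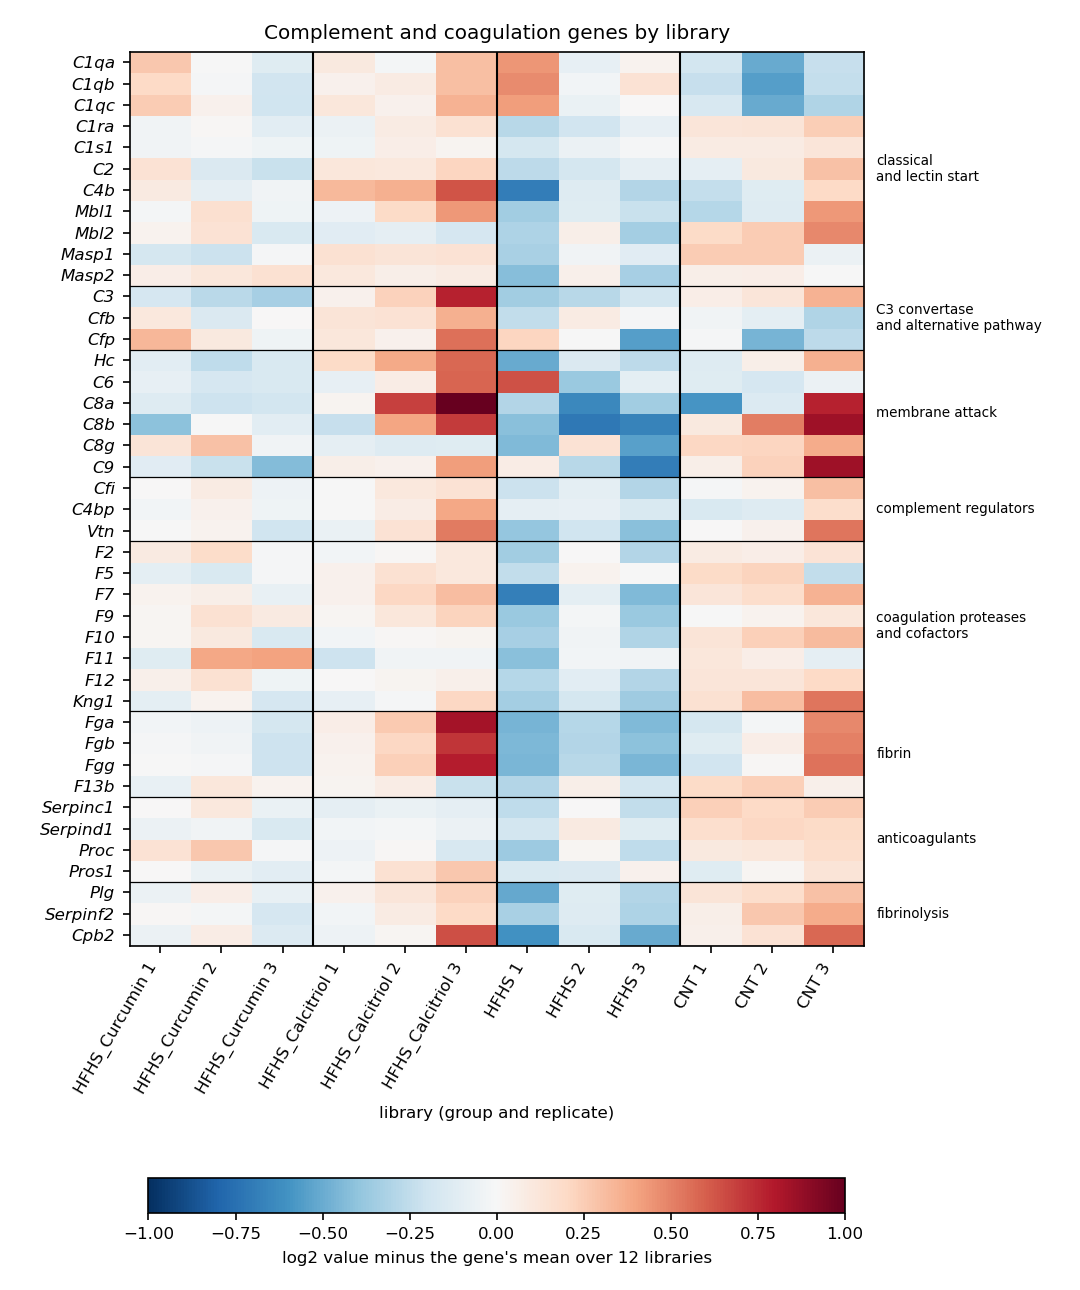
Deviation of each of 42 genes (rows, ordered by role) from its own mean over 12 libraries, on the log2 scale, for each library (columns, by group); the colour scale ends at -1 and 1. HFHS replicates 1 and 3 are low for most rows, HFHS_Calcitriol replicate 3 and CNT replicate 3 are high for fibrinogen, C3 and C8a, and the C1q rows follow another order.

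Levels per length spanned a wide range. On the scale of log2 value minus log2 exonic kilobases, C3 was highest with a median of 15.14 over 12 libraries, followed by Fgg at 14.62 and Fga at 14.54, the fibrinogen gamma and alpha chains. Vtn, vitronectin, and Fgb, the fibrinogen beta chain, came next at 14.16 and 14.09, and the ranges of neighbours in this order overlapped over the libraries. The C1q chains stood between 9.17 and 10.23 and Cfp at 8.72, amid the lower hepatocyte-made genes. Masp1 at 6.87 and Cfb at 4.97 were lowest. Cfb shares 79.5% of its exonic bases with the same-strand gene Gm20547, which is listed at 0 in every library, so the level of Cfb, and that of C2 with 42.8%, is uncertain.

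In the comparison of HFHS with CNT, which asks how untreated HFHS livers differed from those titled CNT, hepatocyte-made factors were mostly lower and the C1q chain gene C1qb was higher. By limma with Benjamini-Hochberg adjustment over all genes, 12 of 38 hepatocyte-made genes fell and none rose, and of the 4 macrophage-made genes 1 rose. Over all genes 11.9% were called, 5.36% lower and 6.55% higher. The change was below 0 for 36 of the 38 hepatocyte-made genes, or 29 after quantile normalization, against 52.1% of all genes, and their median change was -0.36, or -0.10 after quantile normalization. Groups did not overlap for 25 of the 38, all lower in HFHS, against 14.1% of all genes. Quantile normalization gives every library the same set of values by rank. Of the 38 genes, 12 were in the top 1% of all genes by mean value and 28 in the top 5%. The shares of all genes given here are not matched for level. Why the changes were smaller after quantile normalization was not tested.

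The genes that fell came from every stage of both systems except the C3 step, fibrin and the 3 complement regulators. In the lists of general liver genes, 4 of 14 hepatocyte markers fell (28.6%) beside the 31.6% of these factors, and 4 of 10 liver transcription factors, Cebpa, Nr1h4, Foxa3 and Nr5a2, fell too. All 14 hepatocyte markers were below 0, with a median change of -0.37, and all 10 liver transcription factors, with a median of -0.33. Stellate cell markers were above 0 in 6 of 6 genes, of which 3 rose. Their part in the result was not tested.

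Within clotting, F7, Kng1, F10 and F12 fell, 4 of 8 proteases and cofactors. F7, the protease that tissue factor activates to start clotting, stood at 10.86, 10.89 and 10.75 in HFHS_Curcumin, 10.87, 11.03 and 11.14 in HFHS_Calcitriol, 10.14, 10.73 and 10.39 in HFHS and 10.95, 10.998 and 11.18 in CNT. All HFHS values lay under all CNT values, and F7 fell by 0.62 ± 0.13 (SE; adjusted p = 0.0178). Kng1, kininogen, the precursor of bradykinin, stood at 14.98, 15.12 and 14.91 in HFHS_Curcumin, 15.01, 15.07 and 15.29 in HFHS_Calcitriol, 14.75, 14.91 and 14.73 in HFHS and 15.23, 15.39 and 15.62 in CNT. It fell by 0.62 ± 0.13 (adjusted p = 0.0191) without overlap. F10, whose active form makes thrombin from prothrombin, fell by 0.45 ± 0.11 (adjusted p = 0.0239), and F12, which starts the contact pathway, fell by 0.38 ± 0.09 (adjusted p = 0.0267). F2, prothrombin itself, stood at 15.02, 15.12 and 14.92 in HFHS_Curcumin, 14.91, 14.95 and 15.04 in HFHS_Calcitriol, 14.58, 14.94 and 14.64 in HFHS and 15.02, 15.00 and 15.07 in CNT. Its change was -0.31 ± 0.12 (adjusted p = 0.103), with HFHS replicate 2 close to the CNT values. The fibrinogen chains Fga, Fgb and Fgg were at -0.49 ± 0.21, -0.53 ± 0.19 and -0.52 ± 0.21 (adjusted p = 0.126, 0.0849 and 0.118), with no overlap between the groups. Their median change was -0.52, or -0.17 after quantile normalization.

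All 3 fibrinolysis genes fell. Plg, plasminogen, stood at 15.33, 15.45 and 15.31 in HFHS_Curcumin, 15.43, 15.51 and 15.62 in HFHS_Calcitriol, 14.88, 15.27 and 15.09 in HFHS and 15.52, 15.56 and 15.68 in CNT, a change of -0.51 ± 0.13 (adjusted p = 0.0298). Every HFHS library was below every CNT library, with replicate 2 nearest. Serpinf2, the inhibitor of plasmin, fell by 0.49 ± 0.11 (adjusted p = 0.0245), and Cpb2, a carboxypeptidase that protects fibrin, fell by 0.68 ± 0.19 (adjusted p = 0.0424). Serpinc1, antithrombin, was the 1 anticoagulant of 4 that fell, at 15.08, 15.18 and 15.01 in HFHS_Curcumin, 14.99, 15.01 and 14.99 in HFHS_Calcitriol, 14.82, 15.08 and 14.83 in HFHS and 15.31, 15.28 and 15.33 in CNT. It fell by 0.40 ± 0.11 (adjusted p = 0.0395), but its change was 0.01 after quantile normalization, so its direction was not kept under that scaling. Serpinc1 was at rank 46 of all genes by mean value, and why the scaling altered its change was not tested. Proc, protein C, had a change of -0.33 ± 0.11 (adjusted p = 0.0735). Serpinc1 shares 34.4% of its exonic bases with the antisense gene Zbtb37, and the sources used here do not say whether counting used strand.

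Within complement, Mbl2, a mannose-binding lectin, stood at 13.03, 13.14 and 12.84 in HFHS_Curcumin, 12.88, 12.90 and 12.82 in HFHS_Calcitriol, 12.68, 13.05 and 12.65 in HFHS and 13.18, 13.24 and 13.47 in CNT. It fell by 0.51 ± 0.13 in HFHS against CNT (adjusted p = 0.0305), with no overlap. C1ra, a C1r protease gene with a close paralog, fell by 0.35 ± 0.08 (adjusted p = 0.0237). C8b, the beta chain of the attack complex component C8, had the largest change of the 42, at 10.38, 10.78 and 10.68 in HFHS_Curcumin, 10.55, 11.17 and 11.48 in HFHS_Calcitriol, 10.37, 10.07 and 10.12 in HFHS and 10.88, 11.30 and 11.63 in CNT. It fell by 1.08 ± 0.23 (adjusted p = 0.0205), and C8g, the gamma chain, fell by 0.54 ± 0.15 (adjusted p = 0.0418). C9, which forms the pore wall, was at -0.68 ± 0.22 (adjusted p = 0.0632), C3 at -0.45 ± 0.18 (adjusted p = 0.121) and Hc, which encodes C5, at -0.40 ± 0.15 (adjusted p = 0.0923).

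Macrophage-made C1q took the other direction. C1qb, the B chain, stood at 10.54, 10.33 and 10.15 in HFHS_Curcumin, 10.38, 10.42 and 10.64 in HFHS_Calcitriol, 10.81, 10.31 and 10.48 in HFHS and 10.10, 9.79 and 10.10 in CNT. It rose by 0.54 ± 0.14 in HFHS against CNT (adjusted p = 0.033). C1qa and C1qc had changes of 0.44 ± 0.15 each (adjusted p = 0.0682 and 0.0676), and for all 3 chains every HFHS value lay above every CNT value, as for 12.7% of all genes. Cfp, properdin, which stabilises the C3 convertase, stood at 9.82, 9.59 and 9.45 in HFHS_Curcumin, 9.61, 9.54 and 10.05 in HFHS_Calcitriol, 9.71, 9.49 and 8.94 in HFHS and 9.48, 9.03 and 9.23 in CNT. Its change was 0.13 ± 0.20 (adjusted p = 0.668) and the groups overlapped.

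The count of 13 genes moved with single libraries, as did that of all genes. It was 0 without HFHS replicate 1 or CNT replicate 2, where 1.71% and 1.07% of all genes were called. The hepatocyte-made median was then -0.30 and -0.38, with 37 and 36 of 38 below 0. The count was 1 without HFHS replicate 3 (2.13% of all genes), 5 and 7 without CNT replicates 1 and 3 (4.26% and 10.8%), and 25 without HFHS replicate 2 (29.4%). It was 3 (C1qb, C8b and F7) after quantile normalization, 1 higher and 2 lower. That is a smaller share of the 42 than the 8.85% of all genes called under that scaling. The count was 0 when only these 2 groups were fitted, where 13 genes of all passed. In that fit 26 of the 42 had an unadjusted p under 0.05, and the share of all genes was not taken. With all 12 libraries it was 31 of the 42, against 31.9% of all genes.

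**Figure D2:**
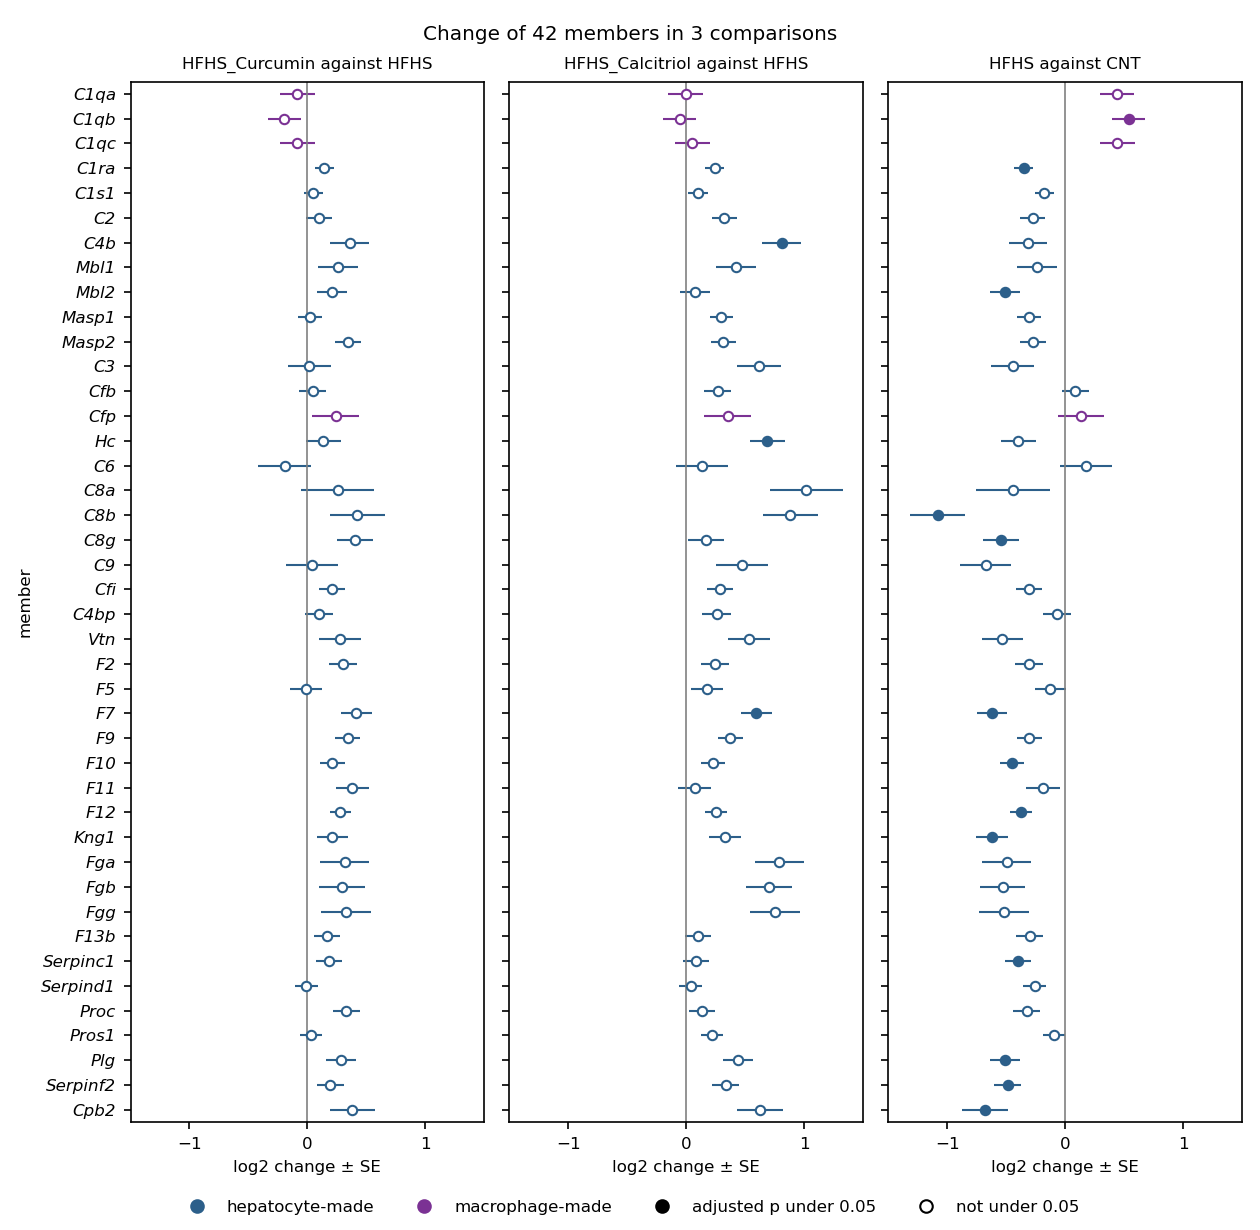
Log2 change (x axis, ± SE from limma) of 42 genes (y axis) in 3 comparisons, with filled points where the adjusted p is under 0.05. Against CNT, 12 hepatocyte-made genes of HFHS lie filled to the left and C1qb filled to the right; with calcitriol, C4b, Hc and F7 are filled to the right.

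Calcitriol liposomes were set against untreated HFHS livers to ask what the treatment changed. C4b, Hc and F7 rose, 3 of 42 genes or 7.14%, and none fell, where 2.21% of all genes were called, 0.973% higher. At an unadjusted p under 0.05 there were 24 of the 42, against 21.3% of all genes. The change was above 0 for all 38 hepatocyte-made genes, or 32 after quantile normalization, against 49.5% of all genes, with a median change of 0.31, or 0.18 after quantile normalization. Groups did not overlap for 26 of them, all higher with calcitriol, against 12.6% of all genes. The comparison shares its HFHS libraries with that of HFHS against CNT, so the opposite signs are not independent.

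C4b, the C4 that both the classical and lectin routes cleave, stood at 14.64, 14.46 and 14.51 in HFHS_Curcumin, 14.88, 14.91 and 15.18 in HFHS_Calcitriol, 13.86, 14.42 and 14.25 in HFHS and 14.31, 14.43 and 14.75 in CNT. Every calcitriol value was above every HFHS and CNT value, and C4b rose by 0.81 ± 0.16 against HFHS, 1.75-fold (adjusted p = 0.0365). Its near copy C4a, at 4.62 to 5.55, could share reads with it. Hc stood at 13.90, 13.75 and 13.85 in HFHS_Curcumin, 14.20, 14.39 and 14.58 in HFHS_Calcitriol, 13.50, 13.86 and 13.74 in HFHS and 13.87, 14.06 and 14.36 in CNT. It rose by 0.69 ± 0.15 with calcitriol (adjusted p = 0.0395) without overlap with HFHS, and F7 rose by 0.60 ± 0.13 (adjusted p = 0.0399).

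C3, the central component, stood at 17.40, 17.30 and 17.24 in HFHS_Curcumin, 17.61, 17.79 and 18.33 in HFHS_Calcitriol, 17.22, 17.28 and 17.38 in HFHS and 17.63, 17.68 and 17.91 in CNT. Calcitriol replicate 3 was the highest library and all 3 calcitriol values exceeded the HFHS values, a change of 0.62 ± 0.18 (adjusted p = 0.0928). The fibrinogen chains had changes of 0.79 ± 0.21 for Fga, 0.70 ± 0.19 for Fgb and 0.75 ± 0.21 for Fgg (adjusted p = 0.0691, 0.0772 and 0.0792), again without overlap. Their median change was 0.75, or 0.37 after quantile normalization. C9 at 0.47 ± 0.22, F2 at 0.25 ± 0.12 and Plg at 0.44 ± 0.13 did not pass either, and Proc and Serpinc1 were at 0.13 ± 0.11 and 0.08 ± 0.11. Serpinc1 was at -0.12 after quantile normalization. C1qa, C1qb and C1qc were at -0.01, -0.05 and 0.05 (SE 0.15, 0.14 and 0.15), and Cfp at 0.35 ± 0.20.

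The acute phase list was above 0 in 10 of 10 genes with calcitriol, with Itih4 called (1.12 ± 0.26, adjusted p = 0.0495), and Stat3 rose by 0.58 ± 0.11 (adjusted p = 0.0311). The summed level of that list was 17.9 to 19.6 in HFHS_Calcitriol and 17.5 to 17.6 in HFHS. Erythroid markers were above 0 in 6 of 6 genes, all without overlap, with a median change of 0.89 and Alas2 called. Hepatocyte markers were above 0 in 9 of 14 genes, with a median change of 0.11, and liver transcription factors in 10 of 10, with a median of 0.21. Of the other lists, the Kupffer cell gene Cd163 and the liver endothelium gene Clec4g rose and the stellate cell gene Des fell. The part of these lists in the result was not tested. Without HFHS_Calcitriol replicate 3 no gene of the 42 passed (16 at an unadjusted p under 0.05), 37 of 38 hepatocyte-made genes were still above 0, and the median fibrinogen change was 0.54 in place of 0.75. The count was also 0 without HFHS_Curcumin replicate 1, 2 or 3, HFHS_Calcitriol replicate 2, HFHS replicate 1 or 3 or CNT replicate 2 (19 to 25 at an unadjusted p under 0.05), 1 without HFHS_Calcitriol replicate 1, 7 without CNT replicate 3 (3.77% of all genes), when the fibrinogen chains and C8a passed as well, and 19 without HFHS replicate 2 (17.4%). It was 0 when only these 2 groups were fitted (20 at an unadjusted p under 0.05). The share of all genes at an unadjusted p is given only with all libraries, at 21.3%.

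**Figure D3:**
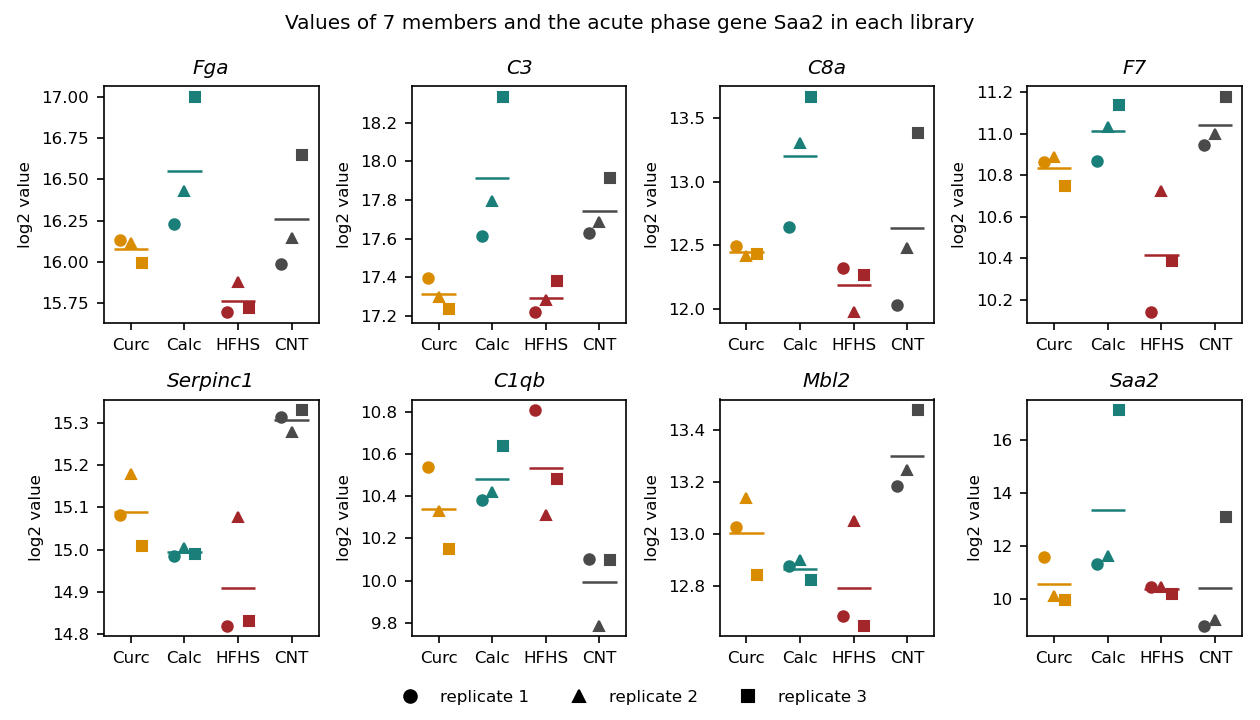
Log2 values (y axes, each with its own range) of 7 complement and coagulation genes and the acute phase gene Saa2 in each library, with symbols for the replicate and a line at each group mean. Fga, C3, C8a and Saa2 peak in HFHS_Calcitriol replicate 3, Serpinc1 and Mbl2 are highest in the 3 CNT libraries, and C1qb is lowest there.

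Curcumin liposomes against HFHS gave no call among the 42 by limma (10 at an unadjusted p under 0.05, against 24.7% of all genes), where 0.301% of all genes were called. A block by replicate number over all 12 libraries was also fitted, since same-numbered HFHS_Curcumin and HFHS libraries deviated together. With it, 0 of the 42 (10 at an unadjusted p under 0.05) and 1.92% of all genes passed. The change was above 0 for 35 of 38 hepatocyte-made genes, against 49.2% of all genes, but for 21 of 38 after quantile normalization. Groups did not overlap for 16 of them, all higher with curcumin, against 11.9% of all genes. Hepatocyte markers were above 0 in 11 of 14 genes, with a median change of 0.22, and liver transcription factors in 10 of 10, with a median of 0.30. The part of these lists in the result was not tested. The smallest p-values were those of F9, the protease lacking in haemophilia B, at 0.34 ± 0.10 (adjusted p = 0.0971), F7 at 0.42 ± 0.13 (0.101), the lectin protease gene Masp2 at 0.34 ± 0.11 (0.105), F12 at 0.28 ± 0.09 (0.109) and Proc at 0.33 ± 0.11 (0.12). Masp2 shares 54.9% of its exonic bases with the antisense gene Tardbp.

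Proc stood at 12.94, 13.06 and 12.79 in HFHS_Curcumin, 12.74, 12.81 and 12.64 in HFHS_Calcitriol, 12.44, 12.82 and 12.54 in HFHS and 12.90, 12.91 and 12.97 in CNT. Curcumin replicate 2 was the highest library and HFHS replicate 2 lay inside the curcumin range. The fibrinogen chains were at 0.32 ± 0.21, 0.29 ± 0.19 and 0.32 ± 0.21 (Fga, Fgb, Fgg), F2 at 0.30 ± 0.12, Plg at 0.28 ± 0.13, Serpinc1 at 0.18 ± 0.11, Hc at 0.13 ± 0.15, C9 at 0.04 ± 0.22 and C3 at 0.02 ± 0.18. C1qa, C1qb and C1qc were at -0.09, -0.20 and -0.09 and Cfp at 0.24. Without HFHS replicate 2, 11 of the 42 passed, all higher with curcumin and among them F2, F7, F9 and Proc; the share of all genes was then 25.4%. Without any other single library the count stayed at 0.

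Curcumin against calcitriol gave 0 calls over all genes by limma, with 1873 at an unadjusted p under 0.05 (14.8%) and 7 of the 42. Hc at -0.55 ± 0.15 (adjusted p = 0.203), C3 at -0.60 ± 0.18 (0.235), Masp1, a lectin protease gene, at -0.28 ± 0.10 (0.268), C4b at -0.45 ± 0.16 (0.268) and C8a at -0.76 ± 0.31 (0.307) had the smallest p-values. For these 5 genes, picked by their p-values, every curcumin value lay below every calcitriol value. Over all 42 genes the groups did not overlap for 31%, 11 lower and 2 higher with curcumin. Over all genes this was 28.7%, with 13.8% lower. Serpinc1 differed by 0.10 ± 0.11 and F2 by 0.05 ± 0.12 (SE). When only these 2 groups were fitted, 214 genes passed, Hc among them.

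Against CNT, neither treated group gave a call among the 42, where 3.51% of all genes were called with curcumin and 4.04% with calcitriol by limma. At an unadjusted p under 0.05 there were 13 of the 42 with curcumin and 10 with calcitriol, against 18.6% and 23.4% of all genes. With curcumin the smallest p-values were those of Kng1 (-0.41 ± 0.13, adjusted p = 0.12), Masp1 (-0.29 ± 0.10), C9 (-0.63 ± 0.22), Serpind1, heparin cofactor II (-0.27 ± 0.09), and C8b (-0.66 ± 0.23). With calcitriol they were those of C1qb (0.49 ± 0.14, adjusted p = 0.0712), Mbl2 (-0.43 ± 0.13), C1qc (0.49 ± 0.15), Cfb, factor B (0.35 ± 0.11), and C4b (0.49 ± 0.16). The median change of the fibrinogen chains was -0.20 with curcumin and 0.23 with calcitriol, and without CNT replicate 3 it was 0.01 and 0.44. Calls appeared when 1 library was left out. With curcumin they were Masp1 without CNT replicate 3 (7.51% of all genes) and Serpind1 without HFHS replicate 2 (5.9%). With calcitriol they were C1qb and C1qc without HFHS replicate 1 (4.58%), and C1qb, C4b, Mbl2, C8g and Serpinc1, 5 of 42, without HFHS replicate 2 (9.04%). A block by replicate number over all 12 libraries was also fitted, since same-numbered HFHS_Calcitriol and CNT libraries deviated together. With it, C1qb and C1qc were called in calcitriol against CNT, beside 4.96% of all genes.

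Some genes had the same place in all 3 HFHS-titled groups. For C1qa and C1qb, all 9 HFHS-titled libraries lay above all 3 CNT libraries, and for C1s1, Mbl2, F10, Serpinc1 and Serpind1 all 9 lay below. That is 4.76% and 11.9% of the 42, against 3.51% and 4.3% of all genes. C1s1, which encodes the C1s protease, ranged from 12.53 to 12.77 in the 9 libraries and from 12.79 to 12.83 in CNT. Of the 5 lower genes, 3 were among the steadiest of the 42 within groups: the pooled SD of Serpind1, C1s1 and Serpinc1 was 0.081, 0.052 and 0.086, beside 0.443 for C8a and 0.157 for the median of the 42.

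C1q and the hepatocyte-made genes took different orders over the libraries. The median deviation of the C1q chains was 0.25, -0.01 and -0.19 in HFHS_Curcumin, 0.10, 0.04 and 0.30 in HFHS_Calcitriol, 0.44, -0.06 and 0.04 in HFHS and -0.18, -0.50 and -0.24 in CNT. HFHS replicate 1, the lowest library for 24 genes, was the highest for each C1q chain. Kupffer cell markers had summed levels of 13.3 to 13.5 in HFHS_Curcumin, 13.5 to 13.8 in HFHS_Calcitriol, 13.0 to 13.5 in HFHS and 12.9 to 13.2 in CNT, with all 8 markers detected. The 8 infiltrating macrophage markers had 10.4 to 10.6, 10.1 to 10.4, 10.5 to 12.2 and 10.3 to 10.9 in the same order. Macrophage markers rose in HFHS against CNT for 4 of 10 genes and infiltrating macrophage markers for 4 of 8, and their part in the C1q result was not tested. The summed level of the 10 macrophage markers was 13.5 in HFHS replicate 1 and 13.2 in HFHS_Calcitriol replicate 3, the highest of the libraries, and 12.3 in CNT replicate 2, the lowest, the same libraries as for C1q. Against HFHS, the macrophage list had a median change of -0.31 with curcumin and -0.20 with calcitriol, and the infiltrating macrophage list one of -0.78 and -0.95, with no gene of either list called by limma. At an unadjusted p under 0.05 there were 4 of the 10 macrophage markers with curcumin and 1 with calcitriol. Of the 8 infiltrating macrophage markers there were 6 and 7 in that order, against 24.7% and 21.3% of all genes. C1qa was at -0.09 and -0.01.

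**Figure D4:**
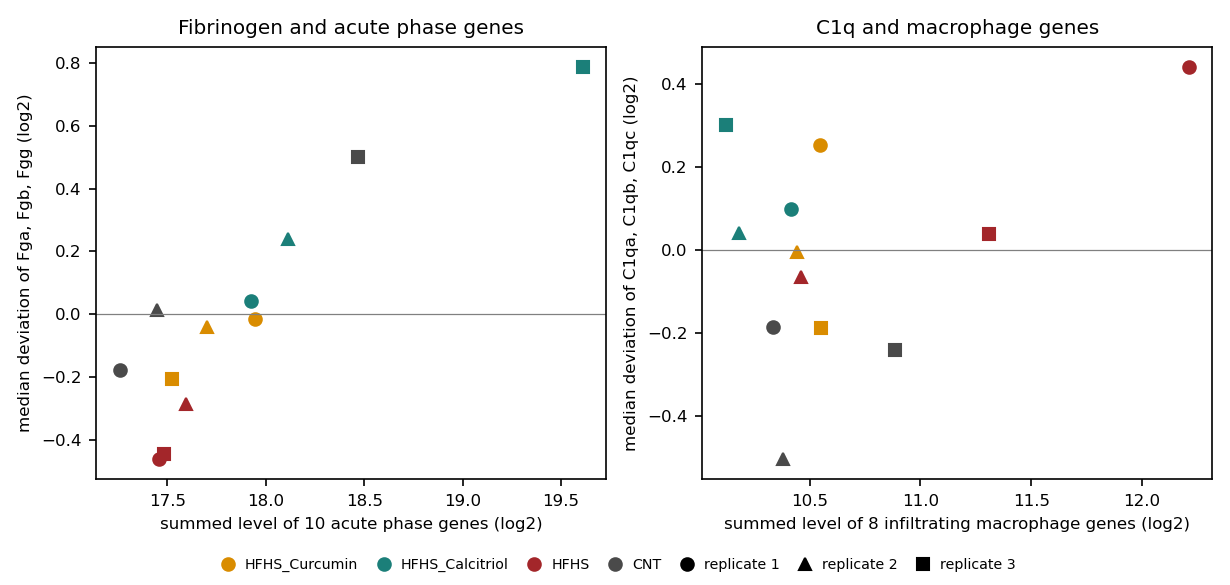
Left, median deviation of the 3 fibrinogen chains (log2, y axis) against the summed level of 10 acute phase genes (log2, x axis); right, median deviation of the 3 C1q chains against the summed level of 8 infiltrating macrophage genes; each point is 1 of 12 libraries. HFHS_Calcitriol replicate 3 and CNT replicate 3 are highest on both axes at left, and the C1q chains of HFHS_Calcitriol replicate 3 are high beside the lowest infiltrating macrophage level at right.

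The chains of 1 protein kept nearly constant differences over the libraries in fibrinogen and C1q, while in C8 the gamma chain took another course than the alpha chain. Fga stood at 16.13, 16.12 and 15.99 in HFHS_Curcumin, 16.23, 16.43 and 17.00 in HFHS_Calcitriol, 15.70, 15.88 and 15.72 in HFHS and 15.99, 16.14 and 16.65 in CNT. It spanned 1.30 over 12 libraries, whereas Fgg minus Fga spanned only 0.10 and Fgb minus Fga 0.21. C1qc minus C1qa spanned 0.14 and C1qb minus C1qa 0.17, beside 0.92 to 1.02 for the single chains. The fibrinogen genes adjoin one another on chromosome 3 (Fga 83026076 to 83033627), and the C1q genes on chromosome 4 (C1qb 136880129 to 136886187, GRCm38), and genes in 1 library share its RNA, so these spans are a description.

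C8 has 3 subunits, alpha, beta and gamma, of which C8a and C8b adjoin on chromosome 4 and C8g lies on chromosome 2. C8a stood at 12.49, 12.42 and 12.43 in HFHS_Curcumin, 12.65, 13.30 and 13.67 in HFHS_Calcitriol, 12.32, 11.97 and 12.27 in HFHS and 12.03, 12.48 and 13.39 in CNT. Its groups overlapped in HFHS against CNT (-0.44 ± 0.31, adjusted p = 0.346), and 2 of 3 calcitriol values and CNT replicate 3 were far above the rest. C8g minus C8a spanned 1.97 over the 12 libraries, from -1.70 in HFHS_Calcitriol replicate 3 to 0.27 in CNT replicate 1, and C8b minus C8a spanned 1.04. Within HFHS_Calcitriol C8b minus C8a was -2.10, -2.13 and -2.19 and within HFHS -1.96, -1.91 and -2.15, close to a constant difference in these groups. It varied more within HFHS_Curcumin, at -2.12, -1.64 and -1.76, and within CNT, at -1.15, -1.19 and -1.76. The C8g level was 12.01, 11.97 and 11.97 in HFHS_Calcitriol, so the calcitriol libraries that were high for C8a were not high for C8g. C9 stood at 11.87, 11.77 and 11.55 in HFHS_Curcumin, 12.04, 12.02 and 12.40 in HFHS_Calcitriol, 12.06, 11.71 and 11.29 in HFHS and 12.04, 12.22 and 12.83 in CNT, highest in CNT replicate 3.

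**Figure D5:**
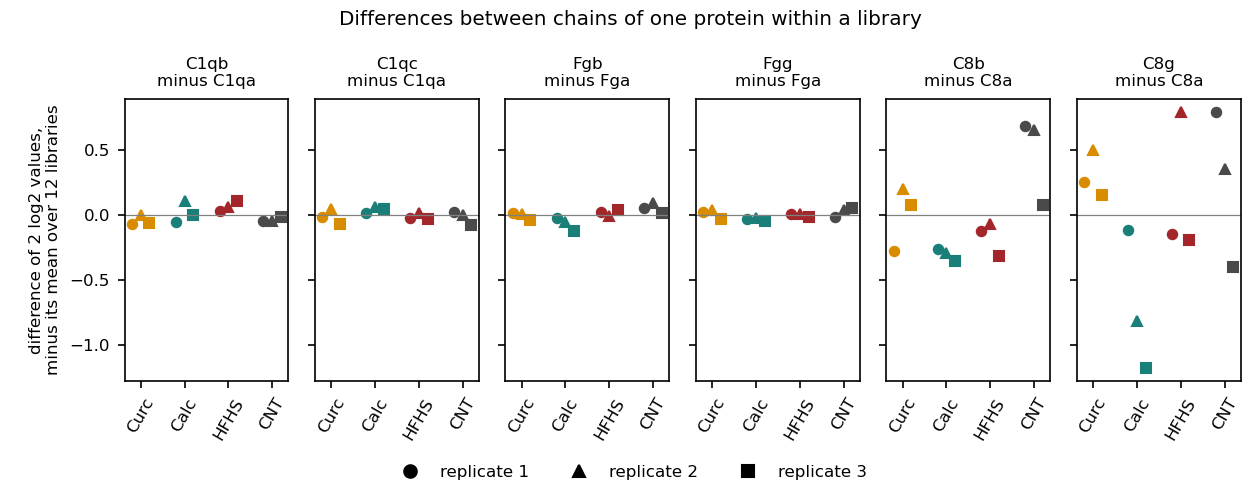
Difference between the log2 values of 2 chains of 1 protein within each library, minus its mean over 12 libraries (y axis), for pairs of C1q, fibrinogen and C8 chains by group (x axis). The C1q and fibrinogen pairs lie near 0 in every library, and C8g minus C8a is lowest in HFHS_Calcitriol replicates 2 and 3.

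To show the DNA ahead of fibrinogen, C8 and C1q chain genes, whose chains were compared, stretches before the RefSeq start (GRCm38.p6) are printed, ending where the first annotated exon begins, with capitals on the motif matches found. Fga is at chr3:83025903-83026075, plus strand, Fgb at chr3:83049864-83050113, minus strand, and Fgg at chr3:83007474-83007723, plus strand. C8a is at chr4:104876399-104876648, minus strand, C8b at chr4:104766067-104766316, plus strand, and C1qc at chr4:136893066-136893164, minus strand.
Fga: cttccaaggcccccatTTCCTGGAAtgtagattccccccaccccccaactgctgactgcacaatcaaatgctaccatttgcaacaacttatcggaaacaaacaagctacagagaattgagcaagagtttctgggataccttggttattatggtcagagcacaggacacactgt
Fgb: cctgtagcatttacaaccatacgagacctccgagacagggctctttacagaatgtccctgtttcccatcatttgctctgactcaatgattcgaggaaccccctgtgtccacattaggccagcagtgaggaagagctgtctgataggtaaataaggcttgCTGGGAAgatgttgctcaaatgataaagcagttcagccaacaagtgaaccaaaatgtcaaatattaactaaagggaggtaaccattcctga
Fgg: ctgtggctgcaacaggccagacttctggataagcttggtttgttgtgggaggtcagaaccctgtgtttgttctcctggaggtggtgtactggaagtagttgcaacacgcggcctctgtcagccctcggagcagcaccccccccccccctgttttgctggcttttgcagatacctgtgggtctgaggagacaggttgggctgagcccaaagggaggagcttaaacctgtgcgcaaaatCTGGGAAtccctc
C8a: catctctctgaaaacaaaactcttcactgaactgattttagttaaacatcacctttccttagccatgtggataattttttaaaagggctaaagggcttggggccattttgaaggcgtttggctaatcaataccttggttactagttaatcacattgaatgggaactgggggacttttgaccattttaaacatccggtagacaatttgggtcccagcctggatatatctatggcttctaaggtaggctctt
C8b: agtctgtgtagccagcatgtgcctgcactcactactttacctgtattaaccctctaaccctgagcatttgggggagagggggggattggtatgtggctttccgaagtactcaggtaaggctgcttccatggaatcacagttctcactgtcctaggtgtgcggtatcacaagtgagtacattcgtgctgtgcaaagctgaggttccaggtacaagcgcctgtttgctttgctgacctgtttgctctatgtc
C1qc: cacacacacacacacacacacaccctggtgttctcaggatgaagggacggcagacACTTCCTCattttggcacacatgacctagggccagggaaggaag
The window searched was the 250 bases before the RefSeq start, on both strands, in 33 of the 42 genes with an entry. The interleukin-6 response element CTGGGAA was found in C1ra, F9, Fgb, Fgg and Masp2, 15.2% of the 33, against 9.08% of 27025 promoters, and it stood at -91 to -85 in Fgb and -13 to -7 in Fgg. The STAT motif TTCCNGGAA was found in Fga, at -234 to -226, and in Pros1, 6.06% against 0.914% of promoters. GAGGAAGT, the core bound by the macrophage factor PU.1, was found in C1qc alone, on the opposite strand at -195 to -188, 3.03% against 2.44%. The HNF4 motif CAAAGTCCA (0.381% of promoters) and the HNF1 motif (0.0074%) were found in none of the 33, and the TATA motif TATAAA (13.0%) in Hc and Vtn. C8a and C8b held none of the 6 motifs. A match describes letters and is not a binding site.

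Other genes of the pathways, 49 listed and 45 tested, included receptors and regulators. In HFHS against CNT 9 rose and 2 fell, 24.4% beside 11.9% of all genes. C5ar1, the receptor for C5a, stood at 5.21, 5.35 and 5.20 in HFHS_Curcumin, 5.52, 5.38 and 5.497 in HFHS_Calcitriol, 5.93, 5.53 and 5.38 in HFHS and 4.84, 4.77 and 5.005 in CNT. It rose by 0.74 ± 0.13 in HFHS against CNT (adjusted p = 0.0113), and against CNT it also rose with calcitriol, by 0.59 ± 0.13 (adjusted p = 0.0309). Anxa2, a plasminogen receptor subunit, rose by 1.38 ± 0.27 (adjusted p = 0.0161). Plaur, the urokinase receptor, rose by 0.50 ± 0.11, Itgb2, the beta chain of complement receptor 3, by 0.86 ± 0.21, and Thbd, thrombomodulin, by 0.58 ± 0.15. The genes that fell, named after their values were seen, were Hrg and Kng2, by 0.54 ± 0.16 and 0.37 ± 0.10. HFHS replicate 1 had the highest value of Anxa2 (9.89) and of C5ar1, and HFHS replicate 2 had 8.43 for Anxa2.

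With calcitriol against HFHS, 1 of the 45 passed: Anxa2 fell by 1.29 ± 0.27 (adjusted p = 0.0384). Calcitriol against CNT gave 2 calls, both higher, C5ar1 and Vsig4, the C3b receptor CRIg of Kupffer cells (0.62 ± 0.12, adjusted p = 0.0203), and 4.44% of the 45 beside 4.04% of all genes. Curcumin gave 0 calls among the 45 by limma, against HFHS or against CNT. At an unadjusted p under 0.05 there were 17 of the 45 against HFHS, beside 24.7% of all genes. Against CNT there were 7, beside 18.6%.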

How the data were processed

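Per the submitters' processing notes, STAR 2.4.0d, DESeq2 1.8.1 and the build GRCm38 were used, without their roles. The authors deposited 1 table of log2 values per library; the transformation is not given in the sources used here, and a transformation that shrinks low values would understate changes of weakly expressed genes. Of 45792 identifiers, 23411 were at 0 in all 12 libraries. Genes reaching 3.32 (log2 of 10) in at least 3 libraries, 12637, were tested with limma 3.58.1 in R 4.3.3: 4 group means over all 12 libraries, trend and robust moderation, two-sided, Benjamini-Hochberg adjustment over all genes tested, threshold 0.05. The method was tested on simulated data, and the outcome is not given here. In curcumin against HFHS (0.160, 0.321 and 0.162) and calcitriol against CNT (0.205, 0.253 and 0.372), same-numbered libraries had correlated deviations from their group means in every pair. There the numbers were taken to pair them, after these correlations were seen. Pairs of unlike number reached 0.318 over all groups, and the labels state no pairing. The block was fitted over all 12 libraries. It thus also paired HFHS_Curcumin replicate 3 with CNT replicate 3, whose correlation was -0.383. Symbols and positions came from GENCODE M21, promoters from RefSeq GRCm38.p6. The genes and lists were chosen with earlier results of these data known. In each comparison the genes past the threshold were named, up to 12 by smallest p, or otherwise the 5 with the smallest p, as values, with C1qa, C1qb, C1qc, Cfp, C3, C9, Hc, F2, Fga, Fgb, Fgg, Serpinc1, Plg and Proc besides. C8a, C8g, C1s1 and the other genes named in the accounts of spread, chains and single libraries, and Cpb2, the 13th call of HFHS against CNT, were chosen after their values were seen. Summed levels are log2 of summed linear values of a list. Alternatives were no filter, a mean of at least 4, quantile normalization, other limma settings, 2-group fits, a replicate block and leaving out libraries.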

Additional observations from a re-analysis of the deposited data

How the results depend on the processing

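Counts of complement and coagulation genes past the threshold moved with single libraries. Leaving out 1 library at a time gave 0 to 25 in HFHS against CNT (13 with all libraries), 0 to 19 in calcitriol against HFHS (3), 0 to 11 in curcumin against HFHS (0), 0 to 1 in curcumin against CNT (0) and 0 to 5 in calcitriol against CNT (0). The same for all genes gave 135 to 3717 (1505), 4 to 2194 (279), 0 to 3207 (38), 94 to 949 (443) and 73 to 1142 (511). Fits of only the 2 groups compared gave 0 genes of these factors and 13 of all in HFHS against CNT, 0 and 0 in calcitriol against HFHS, 0 of all genes in curcumin against HFHS, 1 and 214 in curcumin against calcitriol, and 4 and 548 in calcitriol against CNT. Quantile normalization gave 3 of these factors in HFHS against CNT (8.85% of all genes), 1 in calcitriol against CNT (3.39%), and 168 and 430 of all genes in curcumin and calcitriol against HFHS. In curcumin against HFHS no filter gave 74 of all genes and a mean of at least 4 gave 122, and in calcitriol against CNT no filter gave 328.

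The replicate number was read as a pairing in curcumin against HFHS and calcitriol against CNT alone. The block itself was fitted over all 12 libraries and so paired all groups. Over all groups 9 of 18 same-numbered pairs had correlations above 0.1. The 18 ranged from -0.38 to 0.37, and pairs of unlike number from -0.39 to 0.32. Of the 12 libraries 9 correlated best with their own number, a hint from the data and not the design. With the replicate number as a block, 15 of these factors passed in HFHS against CNT (14.7% of all genes), C1qa and C1qc besides the 13. In calcitriol against HFHS 4 passed (2.22%), C8b besides the 3, and in calcitriol against CNT 2, C1qb and C1qc (4.96%). In curcumin against HFHS 242 of all genes passed. The block changed no other call of these factors.

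Further alternatives were chosen after seeing the data. Without HFHS_Calcitriol replicate 3 and CNT replicate 3 together, 7 of these factors passed in HFHS against CNT (1177 of all genes, 9.31%), 0 in calcitriol against HFHS (31 of all genes), 1 in curcumin against CNT (900) and 191 of all genes in calcitriol against CNT, with 145 in curcumin against HFHS. Without HFHS replicates 1 and 3 together, which leaves 1 HFHS library assumed to vary like the other groups, the counts were 0 (68 of all genes) in HFHS against CNT, 0 (4) in calcitriol against HFHS, 0 of all genes in curcumin against HFHS, 10 of all genes in curcumin against calcitriol, 816 of all genes in curcumin against CNT and 7 (1187) in calcitriol against CNT.

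Quantile normalization left 8 hepatocyte-made genes above 0 in HFHS against CNT (2 without it), 17 below 0 in curcumin against HFHS (3) and 6 below 0 in calcitriol against HFHS (0), and leaving out HFHS replicates 1 and 3 left 8 and 7 below 0 with curcumin and calcitriol. Of the genes named in each comparison by rule, those whose change left its sign follow, the macrophage-made C1q chains included. After quantile normalization they were Serpinc1 0.013 and F2 0.062 in HFHS against CNT, C3 -0.26, C9 -0.11, Hc -0.086, Fgb -0.075, Serpinc1 -0.042 and Plg -0.0079 in curcumin against HFHS, and Serpinc1 -0.12 in calcitriol against HFHS. In HFHS against CNT C3, at rank 3 of all genes by mean value, was at 0 under that scaling. Without HFHS replicates 1 and 3 they were C1qa 0.13, C1qb 0.026, C1qc 0.10 and Hc -0.026 with curcumin, and C1qa 0.21, C1qb 0.17, Serpinc1 -0.085 and Proc -0.084 with calcitriol, and without HFHS_Calcitriol replicate 3 and CNT replicate 3 C1qc was -0.041 with calcitriol. Over single libraries left out, Cfp ranged from -0.030 to 0.35 in HFHS against CNT. In curcumin against HFHS C3 ranged from -0.028 to 0.059, C9 from -0.16 to 0.23, C1qa from -0.20 to 0.068 and C1qc from -0.20 to 0.063. In calcitriol against HFHS C1qa ranged from -0.11 to 0.15, C1qb from -0.16 to 0.084 and C1qc from -0.043 to 0.20. The causes were not tested. With no counts, the depth that limits each value is unknown, and 3 libraries a group limit the precision.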
